A study of Mus musculus with 8 samples.

Results

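Expression of 34 genes of glycolysis, gluconeogenesis, glycogen metabolism, fructose entry and the pentose phosphate pathway was measured by RNA sequencing in primary hepatocytes of the mouse, kept on a soft or a stiff hydrogel. The genes were chosen by name for their place in these pathways, and each name was matched to the raw count table, which lists 56748 genes. The names matched 35 entries of the table, because Aldoa is listed under a pair of identifiers, of which ENSMUSG00000114515 held so few counts (0 to 0.167 CPM in a library) that it was not tested. The other 34 entries were all among the 14279 genes that passed the filter on low counts.

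The hepatocytes came from Yap fl/fl; Taz fl/fl mice that were 7 to 8 weeks old when the virus was injected. Mice given AAV8-TBG-Null served as wild type, and mice given AAV8-TBG-Cre as Yap/Taz knockout. The TBG promoter is active in hepatocytes, so that Cre leaves YAP and TAZ in place in the other liver cells. Cells were isolated 10 days after the virus and cultured for 24 h on collagen-coated polyacrylamide hydrogels of 1 kPa (soft) or 20 kPa (stiff). Each of the 4 groups held 2 libraries. The labels do not say whether replicates came from separate mice, so p-values measure the spread between these libraries, which may be technical. The labels also differ on the sex of the mice, which are given as female in the series design and as male in the growth protocol. Each library held 4818 to 8443 counts of Xist and none of Kdm5d, Eif2s3y, Uty and Ddx3y.

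Glycolysis splits glucose into pyruvate, and gluconeogenesis runs the path backwards through a few enzymes of its own, which lets the liver feed glucose to the blood. Many steps have a liver isoform and an isoform found in most growing cells: liver phosphofructokinase (Pfkl) beside the platelet type (Pfkp), liver pyruvate kinase (Pklr) beside the muscle type (Pkm), and liver glycogen synthase (Gys2) beside Gys1. The pentose phosphate pathway branches off to make NADPH and ribose, and fructose enters through ketohexokinase and triokinase.

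Library totals were between 18324083 and 26442310 counts, and 3 counts, the most that a count of 0 allows, were worth 0.113 to 0.164 CPM. Values are CPM, counts scaled by library size and TMM factor, and levels of different genes are compared only in TPM, which also divides by gene length. Yap1 fell by 1.68 on the log2 scale in the knockout on soft and by 2.20 on stiff hydrogel, and Wwtr1, which encodes TAZ, by 1.37 and 2.13. The known YAP/TAZ targets Ccn1 and Ccn2 rose by 1.72 and 3.32 from soft to stiff in wild type. The 10 hepatocyte markers summed to between 63927 and 94999 CPM, while the lists for stellate cells, endothelial cells and Kupffer cells each summed to between 24.9 and 131 CPM and erythroid and leukocyte markers to between 2.39 and 4.13 CPM. Cholangiocyte markers summed to between 342 and 631 CPM.

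To show examples of the sequence next to members that moved in opposite directions, the 250 bases before the annotated start of 5 members are printed here, 5′ to 3′ on the gene's strand (RefSeq, GRCm38.p6). Hk2, Pklr and Ldha are glycolytic genes that rose on the stiff hydrogel in wild type, and Khk and Tkfc are the fructose genes that fell. They were chosen after their values and motifs were seen, and some members with larger changes are not printed. Capitals mark the letters of 3 motifs, searched on both strands, so that CACGT and CATTCC are motifs read on the opposite strand. The motif CACGTG is the core bound by carbohydrate-response and other E-box factors and it contains the shorter motif ACGTG, which is the core of hypoxia-response elements. The motif GGAATG is the core bound by TEAD, the DNA-binding partner of YAP and TAZ.
Hk2, chr6:82774455-82774704, minus strand: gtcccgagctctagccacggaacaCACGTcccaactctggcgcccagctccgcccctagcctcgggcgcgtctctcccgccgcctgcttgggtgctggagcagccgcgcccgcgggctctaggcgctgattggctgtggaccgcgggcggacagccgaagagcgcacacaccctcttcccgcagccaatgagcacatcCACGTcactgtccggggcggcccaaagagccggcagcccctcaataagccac
Ldha, chr7:46845554-46845803, plus strand: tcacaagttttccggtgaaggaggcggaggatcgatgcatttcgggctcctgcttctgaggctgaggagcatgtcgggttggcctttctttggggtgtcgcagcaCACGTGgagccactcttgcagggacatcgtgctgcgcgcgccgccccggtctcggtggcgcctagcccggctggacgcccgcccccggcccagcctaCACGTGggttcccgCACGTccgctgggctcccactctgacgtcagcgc
Pklr upstream start, chr3:89135892-89136141, plus strand: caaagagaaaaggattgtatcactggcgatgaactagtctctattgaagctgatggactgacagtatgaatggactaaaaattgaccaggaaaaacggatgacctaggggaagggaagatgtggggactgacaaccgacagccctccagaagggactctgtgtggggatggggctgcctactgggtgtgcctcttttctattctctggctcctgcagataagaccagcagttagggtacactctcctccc
Pklr downstream start, chr3:89136373-89136622, plus strand: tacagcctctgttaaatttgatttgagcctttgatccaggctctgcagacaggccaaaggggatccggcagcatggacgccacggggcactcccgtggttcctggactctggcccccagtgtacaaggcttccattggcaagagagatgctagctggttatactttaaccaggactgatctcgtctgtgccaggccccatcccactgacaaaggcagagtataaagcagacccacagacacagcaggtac
Khk, chr5:30921309-30921558, plus strand: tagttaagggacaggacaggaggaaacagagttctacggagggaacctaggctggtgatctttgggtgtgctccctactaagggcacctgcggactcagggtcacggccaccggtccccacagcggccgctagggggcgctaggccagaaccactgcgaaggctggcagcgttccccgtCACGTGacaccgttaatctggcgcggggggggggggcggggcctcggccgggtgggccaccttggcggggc
Tkfc, chr19:10604259-10604508, minus strand: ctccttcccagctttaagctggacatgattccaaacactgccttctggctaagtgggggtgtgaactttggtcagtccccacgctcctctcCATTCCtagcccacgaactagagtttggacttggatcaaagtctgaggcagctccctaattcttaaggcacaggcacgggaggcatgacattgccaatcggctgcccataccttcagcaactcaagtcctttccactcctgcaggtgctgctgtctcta

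RefSeq windows were found for 33 of the 34 members, 53 windows in all, and Gys2 had no entry. CACGTG stood in 5 of the 53 windows (9.43%) against 6.02% of all 32851 windows of this length, and ACGTG in 15 (28.3%) against 16.6%. GGAATG stood in 5 (9.43%) against 12.6%. Windows of a gene can overlap, as for Aldoa and Eno1, so that the same site can be counted again. By member, CACGTG stood in windows of 5, ACGTG of 12 and GGAATG of 4 of the 33. The ACGTG counts include every CACGTG. The printed Ldha window holds CACGTG in 2 places and the Khk window in 1. The other Ldha window, both Hk1 windows and the Gbe1 window, none of them printed, hold none of the 3 motifs, and neither Pklr window holds any of the 3 motifs. Only exact matches were searched, so a site that differs from a motif by a letter was not counted. The downstream Pklr window holds cacggg and, shortly after it, cccgtg, which the search passed over. Its lack of a match therefore does not show that it lacks a carbohydrate-response site. The matches describe letters only, and no binding was measured.

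Wild-type hepatocytes on the stiff hydrogel had more mRNA for glucose phosphorylation by HK1 and HK2, for liver pyruvate kinase and for lactate dehydrogenase A, and less for glycogen synthesis, gluconeogenesis and fructose entry. Of the 34 members, 8 rose and 11 fell, by edgeR's quasi-likelihood test with a Benjamini-Hochberg adjusted p under 0.05 and a log2 fold change beyond 0.5 in either direction. Of all 14279 genes tested, 10.0% rose and 9.26% fell (19.3% changed), against 23.5% and 32.4% of the members. The members had a median of 5125 counts per library and all tested genes a median of 387, so small changes are measured more precisely in the members. The median log2 change of the members was -0.22, that of all tested genes -0.0087. Pathway by pathway, both hexokinases rose, 2 of 7 genes of the aldolase and triose steps rose and none of these 7 fell, while 3 of 4 glycogen genes, 2 of 4 gluconeogenic genes and both fructose genes fell and none of these 10 rose. Of the 10 hepatocyte markers, 4 also fell in this comparison and none rose, with a median log2 change of -0.36. They were Cyp2e1 (-1.75), Hnf4a (-0.98), Asgr1 (-0.82) and Tat (-0.72), while Alb, the most abundant of the list, stood at 0.08. The part of this shift in the falls of the liver genes was not tested. Fewer cells of a type and less RNA per cell cannot be told apart in these bulk samples.

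**Figure D1:**
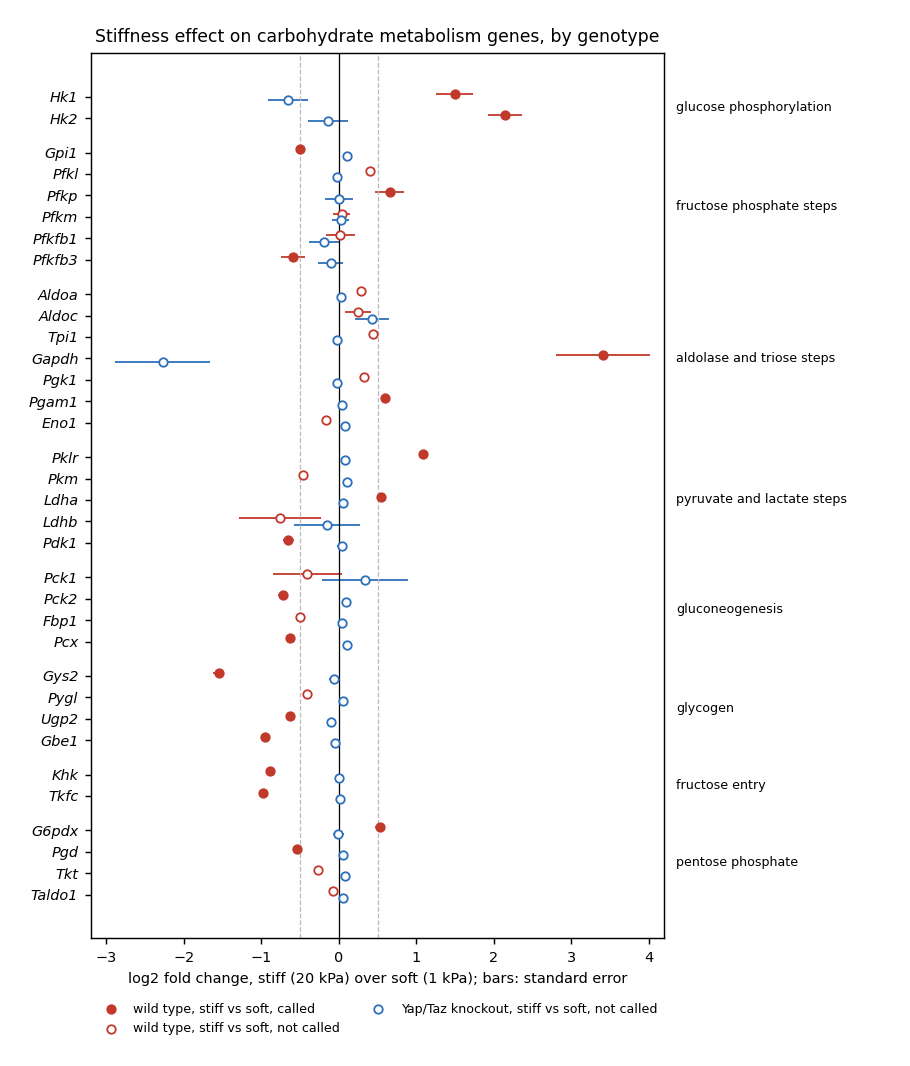
Log2 fold change from soft to stiff hydrogel of each of the 34 members in wild type (red) and knockout (blue), with bars for the standard error from edgeR and dashed lines at the threshold of 0.5. Filled points were called. The red points run from -1.55 for Gys2 to 3.41 for Gapdh, and the blue points, none of them filled, lie within 0.2 of 0 apart from Gapdh, Hk1, Aldoc and Pck1.

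Hexokinase II, which traps glucose in the cell as glucose phosphate and is abundant in muscle and in growing cells, had the largest rise of any member after Gapdh. Hk2 (chromosome 6, 82702006 to 82751435 on the minus strand, as the deposited table gives it) stood at 1.85 and 2.17 CPM in wild type on soft and at 8.73 and 8.89 CPM on stiff hydrogel. In the knockout it stood at 1.80 and 2.19 CPM on soft and at 2.15 and 1.43 CPM on stiff hydrogel. Both wild-type stiff libraries were above the other 6, which overlapped. The log2 fold change was 2.14 ± 0.22 (SE, adjusted p = 2.74e-07) in wild type and -0.14 ± 0.26 (adjusted p = 0.928) in the knockout.

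Hk1, the hexokinase of most adult tissues, stood at 2.31 and 1.5 CPM in wild type on soft and at 5.40 and 5.59 CPM on stiff hydrogel. The knockout libraries held 2.65 and 2.74 CPM on soft and 1.87 and 1.53 CPM on stiff hydrogel. Again the wild-type stiff libraries were the highest without overlap, with a log2 fold change of 1.49 ± 0.24 (adjusted p = 5.88e-05). These are low levels, with 27 to 112 counts per library for Hk1 and 29 to 181 for Hk2. HK1 is also made by non-parenchymal cells, and the summed markers of Kupffer cells fell in wild type from 91.7 and 88.3 CPM on soft to 62.1 and 67.5 CPM on stiff hydrogel, those of endothelial cells from 94 and 88 to 62.4 and 57.1 CPM, and those of stellate cells from 37.1 and 37.6 to 26.8 and 24.9 CPM. In wild type 5 of 10 endothelial and 5 of 10 Kupffer cell markers fell, and none of either list rose. Of 9 tested stellate cell markers 4 fell and 1 rose. The one that rose was Col1a1, at 3.85 and 4.05 CPM on soft and 6.70 and 6.81 CPM on stiff hydrogel. Of the 10 markers in each list, no endothelial marker, at most 1 Kupffer cell marker and at most 2 stellate cell markers were at 0 in a library. Among cholangiocyte markers, 2 of 6 tested genes rose and none fell, with a median log2 change of 0.13. Krt19 rose most, by 3.30 on the log2 scale. Their sum was 605 and 574 CPM on soft and 631 and 627 CPM on stiff hydrogel in wild type. The part of such cells in the result was not tested.

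The steps between glucose phosphate and fructose bisphosphate changed in both directions. Pfkp, the platelet phosphofructokinase, stood at 5.78 and 3.72 CPM on soft and 7.57 and 7.67 CPM on stiff hydrogel in wild type (log2 fold change 0.65 ± 0.19, adjusted p = 0.00877). Its wild-type soft libraries differed from each other by more than the knockout libraries did, and the call was lost without wild-type soft replicate 2 (0.40, adjusted p = 0.110) and without wild-type stiff replicate 1 and knockout soft replicate 1 together (0.67, adjusted p = 0.0598). In the reference annotation 5.58% of its exonic bases overlap exons of Pitrm1 on the other strand.

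Pfkl, the liver phosphofructokinase and the most abundant of the 3 per length, moved by 0.41 ± 0.05, under the fold threshold. It stood at 69.9 and 72.5 CPM on soft and 93.4 and 95.3 CPM on stiff hydrogel, with no overlap. Pfkm, the muscle type, did not pass the test (0.04 ± 0.11).

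Pfkfb3, whose product makes the fructose bisphosphate that activates phosphofructokinase, fell from 9.98 and 8.33 CPM to 6.27 and 5.89 CPM (log2 fold change -0.60 ± 0.16, adjusted p = 0.00496). That call was lost without wild-type soft replicate 1 (-0.45, adjusted p = 0.0855). The liver form Pfkfb1 was at 0.02 ± 0.18. Gpi1, glucose phosphate isomerase, lay just inside the fold threshold at -0.502 ± 0.04, and just outside it on the same side lay Fbp1 at -0.498 ± 0.04.

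Aldolase and the triose steps moved upward by small amounts in wild type. Pgam1, phosphoglycerate mutase, rose from 199 and 207 CPM to 306 and 308 CPM (log2 fold change 0.60 ± 0.05), without overlap, though 41.0% of its 64-base windows also occur in the pseudogene Pgam1-ps2, so that its reads may be split. Tpi1 (0.44 ± 0.05), Pgk1 (0.33 ± 0.04) and Aldoa (0.28 ± 0.04) had adjusted p-values under 0.05 but stayed under the fold threshold. Pgk1, phosphoglycerate kinase, was among the most abundant members per length, at 731 ± 22 TPM on soft and 910 ± 6.70 TPM on stiff hydrogel, and shares 67.7% of its windows with Pgk1-rs7.

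Eno1, the enolase of most tissues, stood at -0.16 ± 0.03 while its retrogene Eno1b rose (0.51 ± 0.04). The windows of Eno1 are shared with Eno1b to 62.5%, and the sum of both was 1856 and 1966 CPM on soft and 1914 and 1905 CPM on stiff hydrogel in wild type. The summed values overlapped, so the opposite values of this pair are uncertain.

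Gapdh, glyceraldehyde phosphate dehydrogenase and a common reference gene, had the largest fold change but varied widely within 2 groups, and its mean in the knockout on soft hydrogel rested on 1 library. It stood at 17.6 and 15.4 CPM in wild type on soft and at 253 and 99.6 CPM on stiff hydrogel. In the knockout it stood at 144 and 16 CPM on soft and at 16.7 and 17.1 CPM on stiff hydrogel. Both wild-type stiff libraries and knockout soft replicate 1 were high, and the other 5 libraries lay between 15.4 and 17.6 CPM. The log2 fold change was 3.41 ± 0.60 (adjusted p = 1.67e-04) in wild type and -2.27 ± 0.61 (adjusted p = 0.543) in the knockout, and the wild-type call was lost with robust empirical Bayes (adjusted p = 0.0979).

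The Gapdh level was far under that of its neighbors in the pathway, at 10.7 TPM in wild type on soft hydrogel against 446 TPM for Tpi1 and 731 TPM for Pgk1. Of its 64-base windows, 81.3% also occur in other genes, 153 of which are in the table, and these genes together held 1137 to 1757 counts in a library. Of 11077 genes with a mean of at least 50 counts, 16 were over 2-fold higher in wild-type stiff replicate 1 than in replicate 2, 16 in knockout soft replicate 1 than in replicate 2, and 6 in both. Those 6, chosen after their values were seen, were Gapdh, Gm10705, Mup17, Mup18, Rps26-ps1 and Srp54b, each of which shares between 65.8 and 99.4% of its windows with other genes. Whether shared reads play a part in the Gapdh values was not tested.

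**Figure D2:**
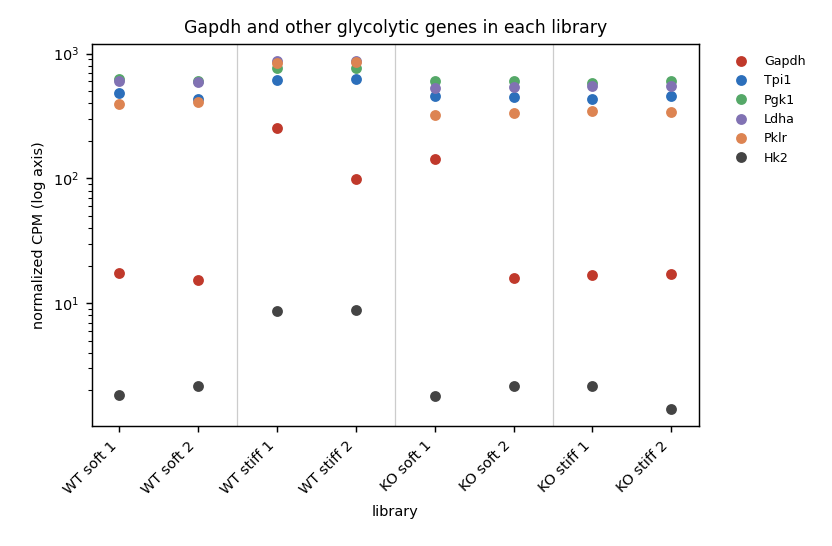
Normalized CPM, on a log axis, of Gapdh and 5 other glycolytic genes in each of the 8 libraries. Gapdh is at 99.6 to 253 CPM in 3 libraries and at 15.4 to 17.6 CPM in the other 5, whereas Tpi1, Pgk1, Ldha, Pklr and Hk2 lie close together within each group.

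Liver pyruvate kinase, which closes glycolysis by making pyruvate, rose while the muscle type did not. Pklr (chromosome 3, 89043449 to 89054091 on the plus strand, as the table gives it) stood at 395 and 407 CPM in wild type on soft and at 849 and 853 CPM on stiff hydrogel. The knockout libraries held 324 and 335 CPM on soft and 350 and 343 CPM on stiff hydrogel. The wild-type stiff libraries were over 2-fold above all others, with a log2 fold change of 1.09 ± 0.04 (adjusted p = 1.04e-13), and in the knockout it was 0.07 ± 0.04 (adjusted p = 0.661). Of the windows of Pklr, 22.8% occur in Hcn3, which overlaps it on the other strand, averaged 293 counts per library and moved by 1.85 on the log2 scale in wild type. Reads of this pair may be split between them.

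Pkm stood at 158 and 154 CPM on soft and 114 and 112 CPM on stiff hydrogel in wild type, and at 217 to 235 CPM in the 4 knockout libraries. Wild-type stiff libraries were thus the lowest and all knockout libraries the highest (-0.46 ± 0.04 from soft to stiff in wild type, under the fold threshold). Together the pyruvate kinases went from 415 ± 5.9 to 759 ± 3.5 TPM in wild type, and the Pklr share from 79.4 and 80.3% to 92 and 92.1%. In the knockout the Pklr share was between 69.3 and 70.4%. Shares are given as a description, and no test was run on them. PKM is typical of non-parenchymal cells, and in the knockout the Kupffer marker sum was 127 to 131 CPM, the endothelial sum 122 to 127 CPM and the stellate sum 53.0 to 57.5 CPM, all above wild type, where the stiff libraries were lowest, as for Pkm. Their part in the result was not tested.

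Ldha, which turns pyruvate into lactate, rose from 603 and 596 CPM to 866 and 873 CPM in wild type (log2 fold change 0.54 ± 0.03, adjusted p = 4.07e-10) and stood at 528 to 553 CPM in the knockout. It made up over 99% of lactate dehydrogenase TPM in every library. Ldhb was under 1 CPM throughout and was not called in wild type (-0.77 ± 0.53). Pdk1, a kinase that shuts the entry of pyruvate into the mitochondrion, fell from 49.5 and 45.6 CPM to 29.6 and 31.1 CPM (log2 fold change -0.65 ± 0.07), without overlap.

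Gluconeogenic genes fell or did not pass. Pck2, the mitochondrial phosphoenolpyruvate carboxykinase, fell from 65.3 and 70.3 CPM to 40.8 and 41.1 CPM (log2 fold change -0.73 ± 0.06), and Pcx, pyruvate carboxylase, from 325 and 351 CPM to 219 and 216 CPM (-0.63 ± 0.04). For both genes the wild-type stiff libraries were the lowest of the 8. Fbp1, fructose bisphosphatase, went from 307 and 306 CPM to 218 and 216 CPM, an adjusted p of 1.87e-08 with a fold change that stopped short of the threshold.

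Pck1, the cytosolic carboxykinase and a mainstay of hormone-driven gluconeogenesis in the living liver, was nearly silent in these cultures. It stood at 1.62 and 0.944 CPM on soft and 1.21 and 0.762 CPM on stiff hydrogel in wild type, and at 0.375 to 0.791 CPM in the knockout. The wild-type groups overlapped, and Pck2 made up 94.8 to 98.7% of the summed TPM of the pair on average in the 4 groups. G6pc, the catalytic subunit that releases free glucose, is not among the 34 and fell by 1.73 on the log2 scale in wild type, from 53.1 and 58.0 CPM to 16.5 and 16.9 CPM.

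Gys2, which builds glycogen in the liver, had the deepest fall among the members. Gys2 (chromosome 6, 142368339 to 142418835 on the minus strand, as the table gives it) stood at 54.1 and 54.9 CPM in wild type on soft and at 17.9 and 19.3 CPM on stiff hydrogel. The knockout libraries held 69.9 and 64.6 CPM on soft and 62.7 and 65.7 CPM on stiff hydrogel. The wild-type stiff libraries were the lowest by over 2-fold, and the knockout groups overlapped. The log2 fold change was -1.55 ± 0.07 (adjusted p = 4.84e-12) in wild type and -0.07 ± 0.06 (adjusted p = 0.816) in the knockout.

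Gbe1, the branching enzyme, fell from 604 and 558 CPM to 303 and 297 CPM (log2 fold change -0.96 ± 0.04), and Ugp2, which makes the UDP-glucose that glycogen synthase uses, from 313 and 283 CPM to 192 and 194 CPM (-0.63 ± 0.05). Pygl, the liver phosphorylase that breaks glycogen down, moved the same way by less, -0.41 ± 0.04. All 4 glycogen members were lowest in the wild-type stiff libraries. The Gys2 share of glycogen synthase TPM was 94.5% ± 0.23 on soft and 81.3% ± 1.3 on stiff hydrogel in wild type, and 95.9% ± 0.20 and 95.1% ± 0.17 in the knockout (SD, n = 2).

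**Figure D3:**
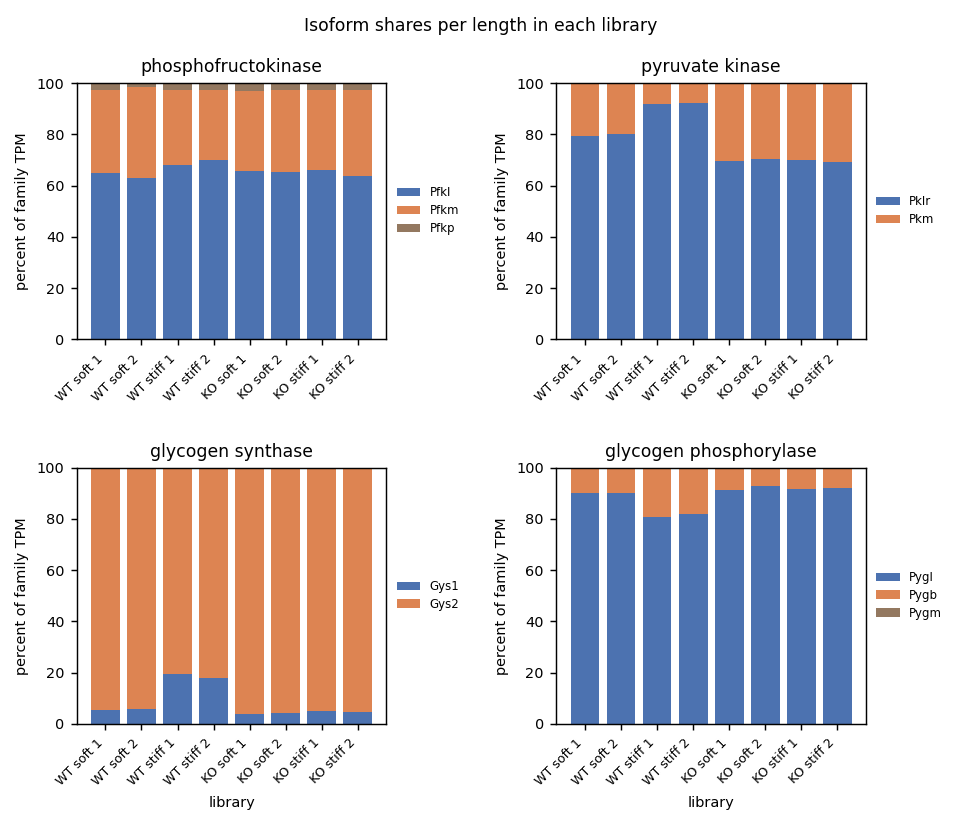
Share of each isoform in its family's summed TPM, in percent, in each of the 8 libraries, for phosphofructokinases, pyruvate kinases, glycogen synthases and glycogen phosphorylases. In the wild-type stiff libraries the Pfkl, Pklr, Gys1 and Pygb shares are all larger than in the other 6 libraries.

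The fructose genes moved as a pair. Khk, ketohexokinase, fell from 426 and 446 CPM to 228 and 242 CPM in wild type (log2 fold change -0.89 ± 0.04, adjusted p = 1.35e-11), and Tkfc, triokinase, from 721 and 688 CPM to 362 and 351 CPM (-0.98 ± 0.04, adjusted p = 4.20e-13). In the knockout Khk was at 535 to 564 CPM and Tkfc at 919 to 955 CPM in the 4 libraries, all above every wild-type library. Exons of Cyb561a3 and Ddb1 on the other strand cover 12.9 and 7.1% of the exonic bases of Tkfc, and how strand entered the counting is not given in the sources used here. Cyb561a3 moved by -0.19 and Ddb1 by 0.18 in wild type.

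In the pentose phosphate pathway the first NADPH-producing enzyme rose and the next fell. G6pdx, glucose phosphate dehydrogenase, went from 38.3 and 37.6 CPM to 54.8 and 54.7 CPM in wild type (log2 fold change 0.53 ± 0.06, adjusted p = 2.78e-06). Pgd, phosphogluconate dehydrogenase, went from 962 and 1013 CPM to 670 and 684 CPM (-0.54 ± 0.03, adjusted p = 3.17e-10). Neither pair of groups overlapped. Ikbkg exons on the other strand cover 13.6% of the exonic bases of G6pdx, and Ikbkg moved by -0.44. Tkt (-0.28 ± 0.04) stayed under the fold threshold and Taldo1 (-0.08 ± 0.04, adjusted p = 0.0969) did not pass the test.

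Read by isoform, 9 members were grouped as liver forms or liver enzymes (Pfkl, Pfkfb1, Pklr, Pck1, Fbp1, Pcx, Gys2, Pygl and Khk). Of these, 1 rose (Pklr) and 3 fell in wild type, with a median log2 change of -0.41. Another 9 were grouped as broad, proliferative or other-tissue forms (Hk1, Hk2, Pfkp, Pfkm, Pfkfb3, Aldoa, Aldoc, Pkm and Ldha). They include the muscle type Pfkm and the brain type Aldoc. In this group 4 rose (Hk1, Hk2, Pfkp and Ldha) and 1 fell (Pfkfb3), with a median of 0.28. Of all genes tested 10.0% rose and 9.26% fell. Pfkl, a liver form, stood at 0.41 and Pkm, a broad form, at -0.46, both under the fold threshold.

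**Figure D4:**
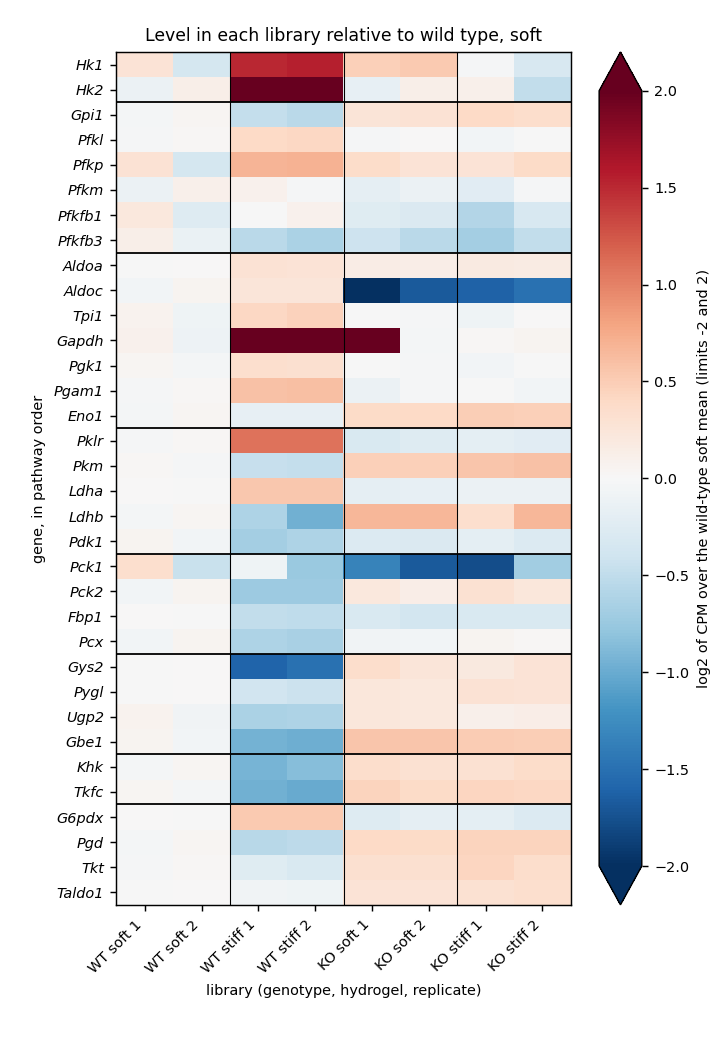
Level of each of the 34 members in each of the 8 libraries as log2 of CPM over the wild-type soft mean, in pathway order, with the color scale limited to -2 and 2. The wild-type stiff columns differ from the wild-type soft columns over most genes, while the largest differences between the knockout soft and stiff columns are in Gapdh, Hk1, Aldoc and Pck1.

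In the knockout no member was called between soft and stiff hydrogel, by edgeR or by DESeq2, and 8 members had an unadjusted p under 0.05. Among the 14279 genes 0.0210% were called, that is 3 genes (0.0140% upward and 0.00700% downward), with 1077 at an unadjusted p under 0.05. The log2 change was within 0.2 of 0 for 30 of the 34 members, and the others were Gapdh, Hk1 (-0.66 ± 0.26), Aldoc (0.43 ± 0.22) and Pck1 (0.34 ± 0.56). Gapdh was called without knockout soft replicate 2 (-3.10).

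For 18 members the change from soft to stiff was not the same in both genotypes, tested as an interaction in edgeR, against 16.8% of all genes tested. It was more negative in the knockout for 6 members (8.21% of all genes) and more positive for 12 (8.64% of all genes). The 6 were Hk1, Hk2, Gapdh, Pgam1, Pklr and G6pdx, with differences from -0.54 ± 0.09 for G6pdx to -5.68 ± 0.86 for Gapdh. The 12 were Gpi1, Pkm, Pdk1, Pck2, Fbp1, Pcx, Gys2, Ugp2, Gbe1, Khk, Tkfc and Pgd, with differences from 0.53 ± 0.07 for Ugp2 to 1.48 ± 0.09 for Gys2. Ldha (-0.48 ± 0.05) and Pygl (0.46 ± 0.05) stayed just under the fold threshold.

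On the soft hydrogel 4 members differed between knockout and wild type, 2 higher and 2 lower. Of all genes tested 6.67% differed, 2.02% higher and 4.65% lower. Aldoc, the aldolase of brain, was lower, with 8.2 and 8.78 CPM in wild type and 1.72 and 2.64 CPM in the knockout (log2 fold change -1.98 ± 0.20, adjusted p = 5.41e-07), and the groups did not overlap. Gbe1 was higher (0.55 ± 0.04), from 604 and 558 CPM in wild type to 851 and 853 CPM. Pck1 was lower (-1.51 ± 0.49, adjusted p = 0.0407), on levels of 0.398 to 1.62 CPM, and lost its call in 8 of 19 alternatives (adjusted p up to 0.348). Gapdh was called higher (2.30 ± 0.61, adjusted p = 0.0119), but without knockout soft replicate 1 its log2 fold change was -0.05. Without minimum fold change the count was 23 of 34, since many members such as Pgd (0.39 ± 0.03) and Tkfc (0.41 ± 0.04) differed by small amounts with little spread.

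On the stiff hydrogel 22 members differed, 14 higher and 8 lower in the knockout, against 28.7% of all genes tested (13.7% higher and 15.0% lower). This comparison shares its wild-type libraries with the comparison of stiff and soft above, so that both carry the same wild-type stiff values. Higher in the knockout were all 4 glycogen genes, from 0.68 ± 0.04 for Pygl to 1.79 ± 0.07 for Gys2, both fructose genes (Khk 1.23 ± 0.04, Tkfc 1.40 ± 0.04), Pck2 (1.00 ± 0.06), Pcx (0.68 ± 0.04), Gpi1, Eno1, Pkm (1.04 ± 0.04), Ldhb, Pgd (0.99 ± 0.03) and Tkt (0.67 ± 0.04). Lower were Hk2 (-2.29 ± 0.22), Hk1 (-1.68 ± 0.24), Aldoc (-1.80 ± 0.19), Pklr (-1.30 ± 0.04), Gapdh, Pgam1, Ldha (-0.65 ± 0.03) and G6pdx (-0.76 ± 0.07). Eno1b, whose reads may be split with Eno1, went the other way, at 552 and 549 CPM in wild type and 384 and 378 CPM in the knockout. The sum of Eno1 and Eno1b was 1914 and 1905 CPM in wild type and 2517 and 2487 CPM in the knockout, and was not tested.

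Aldoc was lower in the knockout on both hydrogels, at 10.1 and 10.0 CPM in wild type against 2.76 and 3.01 CPM in the knockout on stiff hydrogel, with no overlap, and did not pass the test between hydrogels in either genotype. Ldhb rested on 0.305 to 0.945 CPM (adjusted p = 0.0446) and lost its call in 14 alternatives. In the knockout on stiff hydrogel 9 of 10 endothelial and 9 of 10 Kupffer cell markers and 7 of 9 stellate cell markers were also higher than in wild type, while the 10 hepatocyte markers had a median log2 difference of 0.23, with 4 called upward and 2 downward. Their sum was lower, at 64124 and 63927 CPM against 93457 and 94999 CPM, of which Alb alone made up 54856 and 54501 CPM against 85829 and 87361 CPM. The part of these shifts in the member values was not tested.

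Per length the order of the members differed between groups. In wild type on soft hydrogel Eno1 (758 ± 31.2 TPM), Pgk1 (731 ± 22 TPM) and Khk (649 ± 22.1 TPM) stood at the top, the first 2 within their spread of each other. On stiff hydrogel Pgk1 (910 ± 6.70 TPM) led, ahead of Pklr (699 ± 3.9 TPM) and Ldha (699 ± 5.6 TPM), which did not differ beyond their spread. In the knockout Eno1 (1030 ± 17.1 TPM on soft and 1094 ± 14.4 TPM on stiff hydrogel) and Khk (844 ± 15.7 and 848 ± 26.7 TPM) led in both groups. The lowest members in wild type on soft hydrogel were Hk1 (0.598 ± 0.18 TPM), Hk2 (0.900 ± 0.10 TPM), Pfkp (0.949 ± 0.29 TPM), Pck1 (1.00 ± 0.37 TPM) and Ldhb (1.01 ± 0.042 TPM), whose ranges were close to each other.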

How the data were processed

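Raw counts per gene were deposited as 1 table for the 8 libraries, made by the authors from paired-end reads with HISAT2 2.0.5 (alignment) and featureCounts (counting), and it also lists gene lengths and positions. The submitters' processing notes also name mm9, DESeq2 1.20.0, edgeR 3.22.5 and GATK 4.1.4.1. The positions did not match those of GENCODE M21, so they are printed as deposited and never set beside GRCm38.p6 windows. The rules for strand and for reads matching several genes are not given in the sources used here.

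Counts were filtered with filterByExpr by group, scaled by TMM and fitted for all 8 libraries together with edgeR 4.0.16 (glmQLFit, glmQLFTest) in R 4.3.3, with no replicate term and 4 residual degrees of freedom. Changed genes had a Benjamini-Hochberg adjusted p under 0.05 over the 14279 genes tested and an absolute log2 fold change over 0.5. TPM used the deposited gene lengths. For shared sequence, the longest coding transcript was split into 64-base windows, and the percentage found on either strand in the longest transcript of any other gene is given (GENCODE M21). All 34 members were described, with sister isoforms (Eno1b, Gys1, Pygb, G6pc and others), the extreme called gene of each related gene list, and Yap1, Wwtr1, Ccn1 and Ccn2 as checks. The members and lists were chosen with earlier results of these data known. Some results on related genes are not reported here. Alternatives used DESeq2 1.42.0 as the tool, other scalings and filters, other fold thresholds, robust empirical Bayes, a replicate term, the 4 libraries compared alone and each library left out.

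Replicates differed beyond sampling noise in every group (chi-square per degree of freedom 2.62 to 5.45). In a simulation of all 8 libraries from mean levels over the 4 groups, 200 of 14279 genes drawn at random were changed in wild-type stiff libraries only. At a log2 fold change of 1 edgeR recovered 71.5% with 3 other genes called, and at 0.7 it recovered 64% with 5 others. These genes stand for all tested genes (median 387 counts per library) and not for the members (median 5125). Plots used Python 3.11.15 and matplotlib 3.10.9.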

Additional observations from a re-analysis of the deposited data

Results flagged for a closer look

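The stiffness effect (log2 fold change from soft to stiff hydrogel) differed between knockout and wild type, by the interaction term of edgeR's quasi-likelihood fit, for 18 members. As knockout minus wild type, the difference was -5.685 for Gapdh, -2.278 for Hk2, -2.15 for Hk1, -1.013 for Pklr, -0.5509 for Pgam1 and -0.5358 for G6pdx. It was 1.48 for Gys2, 0.9914 for Tkfc, 0.9067 for Gbe1, 0.8931 for Khk, 0.8182 for Pck2, 0.7403 for Pcx and 0.6934 for Pdk1. Smaller positive differences were found for Gpi1 (0.6039), Pgd (0.5989), Pkm (0.5631), Fbp1 (0.533) and Ugp2 (0.5297). Leaving out each library in turn moved the Gapdh difference between -6.507 and -3.336, that of Hk2 between -2.608 and -2.028 and that of Gys2 between 1.413 and 1.535. The Gapdh difference had an adjusted p of 0.0829 with robust empirical Bayes.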

How the results depend on the processing

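Over 5 comparisons, 63 member calls gave 1240 values under the alternatives, of which 1161 kept direction and call, 77 lost the call and 2 changed direction. Of the lost calls 39 came with a log2 threshold of 1, and of the other 38 Ldhb had 14, Pck1 8, Gapdh 5 and Gpi1 5. Both reversals were Gapdh between knockout and wild type on soft hydrogel, at -0.05224 without knockout soft replicate 1 and at -0.05395 without that library and wild-type stiff replicate 1, the pair with the most Gapdh, an alternative chosen after seeing the data, while without knockout soft replicate 2 it was 3.117. That pair left out, 2 members were called on soft hydrogel instead of 4. A log2 threshold of 1 left 5 members in wild type from soft to stiff, 5 in the interaction and 11 between genotypes on stiff hydrogel. Between genotypes on soft hydrogel DESeq2 called 2 and no minimum fold change 23, and leaving out each library gave 2 to 5, with 2 without knockout soft replicate 1. In the knockout from soft to stiff, no filter on low counts gave 1 call, and leaving out each library 0 to 1, each time Gapdh. Leaving out each library gave 17 to 19 calls in wild type, 17 to 20 in the interaction and 21 to 23 between genotypes on stiff hydrogel. Without division by length, the wild-type change in share was 16.3 percentage points for Pklr (12.21 with it), 2.748 for Pfkl (5.055) and -19.74 for Gys2 (-13.15), which follows from the lengths of the isoforms. The cause of the other changes was not tested.

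A replicate block gave 19, 0, 18, 3 and 21 calls in the 5 comparisons against 19, 0, 18, 4 and 22, with Pck1 (adjusted p = 0.0557) and Ldhb (adjusted p = 0.0549) lost. Same-numbered libraries did not deviate together (correlations of replicate differences between groups from -0.349 to 0.122 over 7139 genes). Such correlations cannot exclude that same-numbered libraries share a mouse, so whether the samples are paired is not known. Other scalings moved the median log2 change of all genes by less than 0.1. With 2 libraries a group, members under about 100 counts per library, such as Ldhb and Pck1, are measured too coarsely for small changes, and the counts cover no error beyond these libraries.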

Other observations

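Of 104 further genes of these pathways, listed with earlier results known, 94 were tested, and 6 rose and 23 fell from soft to stiff hydrogel in wild type, with a median log2 change of -0.06. Of all genes tested 10.0% rose and 9.26% fell in wild type. The share that rose among the 94 was thus not above that of all genes, while the share that fell (23 of 94) was above it. Among glucose and lactate transporters Slc16a3, the lactate exporter MCT4, rose most, from 0.501 and 0.833 CPM to 3.86 and 3.45 CPM (log2 fold change 2.49 ± 0.36, edgeR adjusted p = 2.17e-05), and Slc2a4, the insulin-responsive glucose transporter, fell most, from 5.08 and 5.39 CPM to 2.27 and 1.02 CPM (-1.66 ± 0.27). The groups did not overlap for either gene, both at low levels. In the list of glycolysis and gluconeogenesis 2 of 19 rose and 6 fell, with Tigar, a phosphatase that slows glycolysis, highest (0.54 ± 0.09) and Hk3, the hexokinase of myeloid cells, lowest (-1.77 ± 0.59). Hk3 held 0.241 to 1.64 CPM in a library and fell beside the Kupffer cell marker sum, whose part was not tested.

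Among regulators 1 of 22 rose and 6 fell in wild type. Egln3, an oxygen-sensing prolyl hydroxylase, rose (0.51 ± 0.10), and Irs1, an insulin receptor substrate, fell most (-1.44 ± 0.17). Mlxipl, which encodes the glucose-responsive factor ChREBP that drives Pklr in liver, fell from 124 and 145 CPM to 59.4 and 58.3 CPM (-1.19 ± 0.07). Mlxipl was named after its values were seen. In the knockout it stood at 161 and 170 CPM on soft and 191 and 178 CPM on stiff hydrogel. In glycogen metabolism 1 of 18 rose, Pygb, the brain phosphorylase (0.67 ± 0.09), and 3 fell, Ppp1r3b, which brings a phosphatase to glycogen in liver, most (-1.16 ± 0.08). Pdhb, a subunit of pyruvate dehydrogenase, fell most among 13 genes of pyruvate entry (-1.02 ± 0.04), from 267 and 262 CPM to 130 and 130 CPM, with 0 higher and 2 lower. Of 12 genes of the pentose phosphate, fructose and galactose list 1 rose and 3 fell (Sord, -1.09 ± 0.05, most).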
